A study of Mus musculus with 8 samples.

Results

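The 31 genes described here encode components of the basement membrane. They were taken by gene symbol from a list of basement membrane components drawn up with earlier results of these data known, and each was found on exactly 1 of the 55536 rows of the table. The list holds 10 laminin chains, the 6 chains of collagen IV, 4 other collagens, 2 nidogens, 2 heparan sulfate proteoglycans, 3 genes of the Fraser complex, 2 SMOC genes, nephronectin and dystroglycan. RNA came from the posterior palatal shelves of mouse embryos at E14.5, before the shelves had lifted, with epithelium and mesenchyme together. The 4 control libraries came from Yapfl/fl;Tazfl/fl embryos and the 4 mutant libraries from Yapfl/fl;Tazfl/fl;Col2Cre embryos, so floxed Yap and Taz alleles are shared by both groups and only the mutants carry the Cre. Col2Cre is driven by regulatory sequence of the cartilage collagen gene Col2a1, and the dissected tissue can hold many cells without it. Which embryo each library came from is not stated, so the p-values reflect only how far these samples differ from each other, which may be technical.

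A basement membrane is a thin sheet of matrix under epithelia and around vessels, muscle fibres and nerves. Laminins, trimers of an alpha, a beta and a gamma chain, form one network and collagen IV a second, and nidogens and perlecan (Hspg2) link them. In the palate such a sheet separates the oral and medial edge epithelium from the neural crest-derived mesenchyme, and the shelf's vessels and muscle carry their own. All values below are normalised counts, read counts divided by 1 factor per library, unless given per kilobase, and values in a series stand in the order of replicates 1 to 4.

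Library totals ran from 29025089 to 32437977 reads. The targeted gene Yap1 had 8221 to 8745 normalised counts in the mutants and 9095 to 10086 in the controls, without overlap, while Wwtr1, the gene for TAZ, had 3650 to 4574 and 4449 to 5305, with overlap. The adjusted p of each was 0.751 in limma, and counts over a whole gene can include exons outside the deleted part. Markers of palatal mesenchyme such as Osr2 and Pax9 were all detected, 13 of 13, and their mean log2 level differed by -0.012 between the groups. Control replicate 3 stood apart for the basement membrane genes: of the 29 members with a mean of at least 50, it was the highest of the controls for 23, against 28.4% of all genes tested. Mutant replicate 2 was the highest of the mutants for 10 of the 29 and the lowest for another 10, against 28.7% of all genes in either direction.

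The starts of 2 pairs of collagen IV genes are shown by sequence, one with joined and one with spaced starts, to show how the genes of each pair lie to each other. In the coordinates of the table, whose members lie where the GRCm38 annotation of GENCODE M21 has them for 30 of 31 (all but Lama1), Col4a1 starts on the minus strand at 11312826 of chromosome 8 and Col4a2 on the plus strand at 11312805. The 2 genes thus share 22 bases at their starts. The line for this pair is the stretch of GRCm38 with both starts, chr8:11312755-11312854, plus strand. Col4a5 and Col4a6 on the X chromosome start 1309 bases apart in the table, and their lines are the RefSeq promoter windows of 300 bases, from 250 before to 50 after each RefSeq start, chrX:141475169-141475468 (plus) and chrX:141474027-141474326 (minus). The RefSeq start of Col4a5 lies 34 bases downstream of the start in the table, and that of Col4a6 is the same in both. Capitals mark the GC box GGGCGG and the CCAAT box on either strand.
Col4a2 and Col4a1: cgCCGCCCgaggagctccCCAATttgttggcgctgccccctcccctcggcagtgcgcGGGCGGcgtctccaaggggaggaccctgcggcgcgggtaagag
Col4a5: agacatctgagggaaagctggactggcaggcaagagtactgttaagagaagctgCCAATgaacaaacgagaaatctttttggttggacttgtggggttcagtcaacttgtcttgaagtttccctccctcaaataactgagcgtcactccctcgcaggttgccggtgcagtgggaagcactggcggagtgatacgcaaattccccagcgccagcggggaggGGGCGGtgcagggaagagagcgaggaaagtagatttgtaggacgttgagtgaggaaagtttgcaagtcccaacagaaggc
Col4a6: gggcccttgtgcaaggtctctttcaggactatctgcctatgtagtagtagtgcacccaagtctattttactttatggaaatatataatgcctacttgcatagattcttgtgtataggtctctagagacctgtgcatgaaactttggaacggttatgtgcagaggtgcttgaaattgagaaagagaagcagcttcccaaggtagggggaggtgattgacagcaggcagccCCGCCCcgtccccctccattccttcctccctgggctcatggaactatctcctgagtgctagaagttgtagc

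The full windows of Col4a1 and Col4a2 overlap by 78 bases and are 74.0% and 73.7% G or C, against 52.7% for Col4a5, 48.3% for Col4a6 and a median of 52.7% over all 32851 RefSeq windows. RefSeq windows were found for 21 of the 31 members, 27 windows in all. The GC box GGGCGG, searched on both strands, was in 59.3% of the member windows and 35.7% of all windows, and the CCAAT box in 44.4% and 37.4%. GGAATG, the core letters of the site bound by the TEAD partners of YAP and TAZ, was in 5 of the 27 member windows (18.5%) and 14.7% of all windows, on either strand. The members were Col18a1, Col4a6, Frem2, Lamb3 and Nid1. These matches describe letters in a window and are not sites of binding.

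No basement membrane gene passed the test between mutants and controls. All 31 members reached the filter of 10 normalised counts in at least 4 libraries, and 0 were called by limma at a Benjamini-Hochberg adjusted p under 0.05, with the smallest at 0.754. Over all 16647 genes tested 0.0240% were called. At an unadjusted p under 0.05 there were 5 members (Col18a1 and Lama5 with higher means in the mutants, Npnt, Hspg2 and Lamb2 with lower), where the share over all genes was 6.57%. edgeR and DESeq2 on recovered whole reads also called 0 members, against 0.0300% and 0.221% of all genes. For no member did the 4 mutant libraries all lie on one side of the 4 controls, which 3.77% of all genes showed. Of the 31 members 17 had lower and 14 higher means in the mutants, and the median of their log2 differences was -0.011, beside -0.0001 over all genes. Without control replicate 3 the number lower was 11 and the median 0.075. The titles carry a first number whose meaning is not stated. Within number 2057 (2 controls, 1 mutant) 18 members were lower with a median of -0.029, and within 3602 (1 control, 2 mutants) 21 were lower with a median of -0.25. The 1 control of 3602 is control replicate 3.

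The limma intervals give the spread of each difference for 1 gene at a time, in the dissected tissue as a whole and under this fit. They set no limit on a change within the cells that carry the Cre. For 23 of 31 members the 95% interval of the log2 difference lay within 0.5 of 0 on both sides. It was narrowest for Dag1 at -0.14 to 0.076 and widest for Col4a3 and Col4a4, which are near the limit of detection. An interval that spans 0 does not show that the groups are alike.

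**Figure D1:**
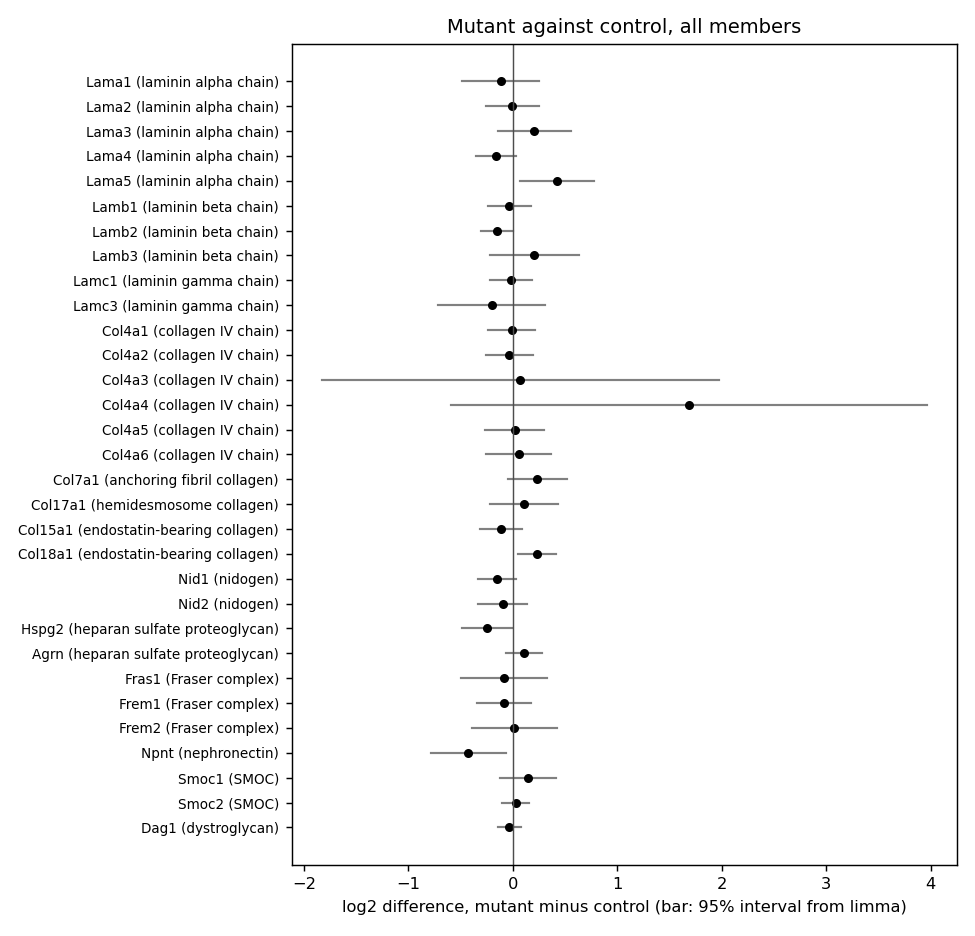
Log2 difference of each of the 31 members, mutant minus control, from limma on log2(normalised count + 1), with the 95% interval as a bar and the role of each gene in brackets. The points lie between -0.43 (Npnt) and 0.42 (Lama5) except Col4a4 at 1.69, whose interval runs from -0.59 to 3.97.

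Levels between genes were compared per kilobase of exonic length, since longer messages yield more reads. The major collagen IV chains stood at the top of the set. Col4a1 had 4046 ± 735 normalised counts per kilobase (SD, n = 4) in the controls and 3972 ± 171 in the mutants, and Col4a2 had 2925 ± 549 and 2819 ± 107. The proteoglycan agrin followed at 1755 ± 172 per kilobase in the controls, then Npnt at 1704 ± 287 and Dag1 at 1678 ± 70.2, and these 3 overlapped in their spread. At ranks 9 and 10 Lamb1 and Lamc1, a beta and a gamma chain found together in most laminin trimers, stood at 1044 ± 146 and 1044 ± 137 per kilobase. Of the 30 neighbouring pairs in the order of control levels 25 overlapped. The 5 gaps without overlap lay below Col4a2, Dag1, Lama4, Lama1 and Col4a6. The order depends on the length used: with the longest transcript in place of all exons 18 members changed rank, by up to 5 places. All 31 members together took 0.560% to 0.703% of normalised counts, the highest value in control replicate 3.

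**Figure D2:**
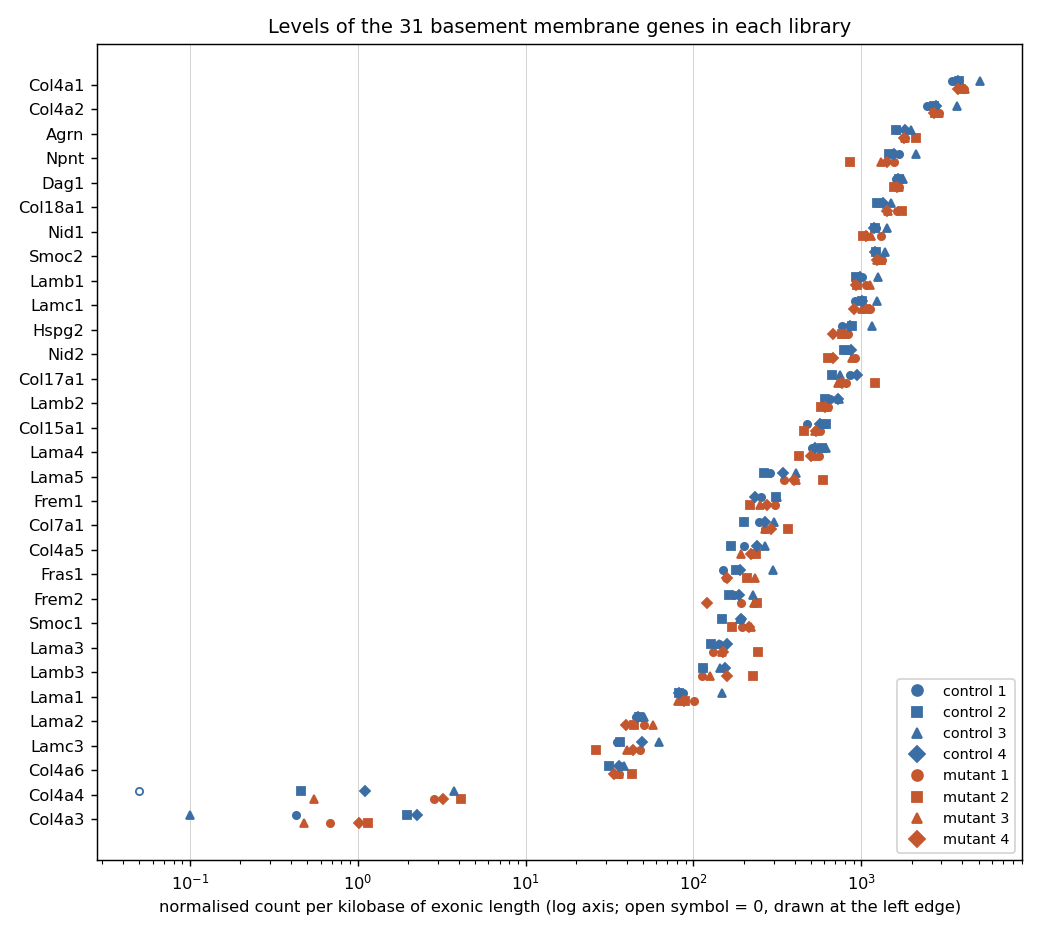
Normalised count per kilobase of exonic length (log axis) for the 31 members, ordered by control mean, with 1 symbol per library (blue for controls, orange for mutants, shapes for replicates 1 to 4, an open symbol at the left edge for the 0 of Col4a4 in control replicate 1). Levels span from about 1 per kilobase for Col4a3 to 4046 for Col4a1, and the 2 colours overlap in every row.

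Among the laminin alpha chains, which decide which receptors a laminin binds, Lama5 had the largest difference and its groups overlapped. Lama5 (ENSMUSG00000015647, chromosome 2, 180176373 to 180225859) encodes the broad epithelial alpha chain. It had 3264, 2982, 4641 and 3892 normalised counts in the controls and 3942, 6746, 4675 and 4520 in the mutants. Mutant replicate 2 was far above the rest, and control replicate 3 lay above mutant replicates 1 and 4. The log2 difference was 0.42 (SE 0.162, adjusted p = 0.754 in limma), and 0.26 without mutant replicate 2.

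Lama4 (ENSMUSG00000019846, chromosome 10, 38965515 to 39110188), an alpha chain of vessel and mesenchymal basement membranes, had the highest alpha-chain level per kilobase, 562 ± 48.0 in the controls. Its normalised counts were 6172, 7067, 7437 and 6431 in the controls and 6775, 5122, 6340 and 6049 in the mutants. The lowest library was mutant replicate 2, and the log2 difference of -0.16 (SE 0.0876, adjusted p = 0.773 in limma) was -0.083 without it. Lama3, the alpha chain of the laminin that anchors skin and oral epithelium, ranged from 1359 to 1690 normalised counts in the controls and from 1397 to 2616 in the mutants. Lama1, an early embryonic chain, had 796 to 1426 in the controls and 780 to 970 in the mutants, its highest value in control replicate 3. Lama2, the muscle and Schwann cell chain, had 748 to 828 and 646 to 938. The mean shares of Lama4 and Lama5 in the alpha-chain total per kilobase differed in opposite directions. Lama5 made up 26.7%, 23.7%, 29.9% and 29.4% in the controls and 29.1%, 42.5%, 33.6% and 33.8% in the mutants. Lama4 made up 45.2% to 53.1% in the controls and 30.5% to 47.2% in the mutants. Both sets overlapped through mutant replicate 1, and this share was looked at after its values were seen and was not tested.

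For the beta chains, Lamb1 (ENSMUSG00000002900, chromosome 12, 31265234 to 31329644), the widespread chain, had 10013, 9184, 12456 and 9765 normalised counts in the controls and 10601, 9368, 11108 and 9250 in the mutants. The groups lay over each other, with a log2 difference of -0.033 (95% interval -0.24 to 0.17). Lamb2 (ENSMUSG00000052911, chromosome 9, 108479736 to 108490530), a chain of vessel, kidney and synaptic basement membranes, had 3932, 3715, 4463 and 4401 normalised counts in the controls and 3842, 3503, 3822 and 3669 in the mutants. Of the controls only replicate 2 lay within the range of the mutants. Its log2 difference was -0.15 (SE 0.0692, adjusted p = 0.754 in limma), with a range of -0.20 to -0.11 when each library was left out. Lamb3, the partner of Lama3, had 750 to 1013 in the controls and 738 to 1506 in the mutants, and its log2 difference of 0.21 was 0.0044 without mutant replicate 2.

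The common gamma chain Lamc1 (ENSMUSG00000026478, chromosome 1, 153218922 to 153332786) had 7589, 8381, 10250 and 8313 normalised counts in the controls and 9267, 8860, 8359 and 7459 in the mutants. No separation was seen, and its log2 difference was -0.021 (95% interval -0.22 to 0.18). Lamc3 was sparse at 214 to 379 in the controls and 161 to 292 in the mutants. Its log2 difference of -0.20 was -0.020 without mutant replicate 2. Of the 2 gamma-chain members, Lamc1 made up 95.8% ± 0.672 of the total per kilobase in the controls and 96.3% ± 0.952 in the mutants.

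The major collagen IV chains did not separate the groups. Col4a1 (ENSMUSG00000031502) had 25736, 28660, 38205 and 28202 normalised counts in the controls and 30511, 29328, 30766 and 27975 in the mutants. Control replicate 3 was above all other libraries, and the 4 mutants lay inside the range of the controls. Its log2 difference was -0.011 (95% interval -0.23 to 0.21), and 0.11 without control replicate 3. Col4a2 (ENSMUSG00000031503) had 16358, 18050, 24641 and 18397 normalised counts in the controls and 19250, 18252, 19259 and 17866 in the mutants. Its log2 difference was -0.037 (95% interval -0.26 to 0.19). Col4a1 and Col4a2, whose products join in one trimer, followed each other from library to library: the ratio of their normalised counts stayed between 1.53 and 1.61 in all 8. Over these 8 libraries, which share depth and scaling for both genes, Pearson's r of the log2 values was 0.99, given as a description.

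The minor collagen IV chains were far lower. Col4a5 (ENSMUSG00000031274) had 1334, 1130, 1782 and 1609 normalised counts in the controls and 1508, 1583, 1286 and 1477 in the mutants. Col4a6 (ENSMUSG00000031273) had 291, 251, 307 and 288 in the controls and 286, 344, 287 and 268 in the mutants. These 2 chains are found together in smooth muscle and some epithelial basement membranes, and neither differed by more than 0.06 on the log2 scale (adjusted p of 0.986 and 0.963 in limma). Their ratio ran from 4.49 to 5.81, a wider band than that of Col4a1 and Col4a2, and r was 0.65. Col4a6 has far fewer reads than the other 3 genes of these pairs, so counting error alone gives its ratio a wider spread, and the part of that was not tested.

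Col4a3 and Col4a4, whose chains belong to the mature kidney filter and the lung, start 72 bases apart on chromosome 1 and were close to absent. Col4a3 (ENSMUSG00000079465) had 4.3, 19.5, 1.0 and 22.6 normalised counts in the controls and 6.8, 11.4, 4.8 and 10.1 in the mutants. Col4a4 (ENSMUSG00000067158) had 0, 4.9, 40.0 and 11.8 in the controls and 30.1, 43.5, 5.8 and 34.4 in the mutants. These are 0 to 46 reads a library, and the 0 in control replicate 1 allows up to 3.19 normalised counts, a limit for counting error only. The 2 genes did not follow each other, with Col4a3 at its lowest where Col4a4 was highest among controls. Their log2 differences, 0.070 (95% interval -1.83 to 1.97) and 1.69 (-0.59 to 3.97), carry little information at this depth.

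Col18a1 had the smallest p of the members. Col18a1 (ENSMUSG00000001435, chromosome 10, 77052178 to 77166548) encodes a heparan sulfate-bearing collagen of epithelial and vessel basement membranes whose end is released as endostatin. It had 8645, 8711, 10503 and 9424 normalised counts in the controls and 11473, 12220, 10093 and 9960 in the mutants. The overlap came from control replicate 3 alone, which stood above mutant replicates 3 and 4. The log2 difference was 0.23 (SE 0.0818, unadjusted p = 0.0160, adjusted p = 0.754 in limma), a fold of 1.17. RefSeq has 2 promoter windows for Col18a1, and the counts do not separate the messages. Its relative Col15a1 had 3019 to 3894 normalised counts in the controls and 2873 to 3623 in the mutants (log2 difference -0.11, and -0.046 without mutant replicate 2).

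The collagens that fasten epithelium had higher means in the mutants, with mutant replicate 2 the highest library for each. Col7a1 (ENSMUSG00000025650, chromosome 9, 108953586 to 108984875), which builds the anchoring fibrils under the epithelium, had 2527, 2047, 3089 and 2741 normalised counts in the controls and 2727, 3761, 2747 and 2983 in the mutants. Its log2 difference was 0.23 (SE 0.128, adjusted p = 0.773 in limma), and 0.13 without control replicate 2, the lowest library. Col17a1 (ENSMUSG00000025064, chromosome 19, 47646344 to 47692094), a transmembrane collagen of hemidesmosomes, had 5152, 4024, 4513 and 5669 in the controls and 4895, 7239, 4355 and 4592 in the mutants. Apart from mutant replicate 2 the mutants lay within the range of the controls, and the log2 difference of 0.10 became -0.058 without that library.

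Of the 2 nidogens, Nid1 (ENSMUSG00000005397, chromosome 13, 13437551 to 13512269) had 8442, 8325, 9897 and 8296 normalised counts in the controls and 9136, 7141, 7917 and 7369 in the mutants. Mutant replicates 2, 3 and 4 were below every control, and mutant replicate 1 was above all but control replicate 3. The log2 difference was -0.15 (SE 0.0837, adjusted p = 0.774 in limma), and -0.089 without control replicate 3. Nid2 had 4073 to 4477 in the controls and 3275 to 4764 in the mutants.

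The proteoglycans had differences of opposite sign. Perlecan, Hspg2 (ENSMUSG00000028763, chromosome 4, 137468769 to 137570630), which binds growth factors through its heparan sulfate chains, had 11039, 12545, 16658 and 12182 normalised counts in the controls and 11901, 11028, 11183 and 9706 in the mutants. Its overlap came from control replicate 1, which lay below mutant replicates 1 and 3, and control replicate 3 was far above the rest. The log2 difference was -0.25 (SE 0.110, adjusted p = 0.754 in limma), with -0.32 without control replicate 1 and -0.12 without control replicate 3 as the ends of the range when each library was left out. Agrn (ENSMUSG00000041936, chromosome 4, 156165290 to 156197488), agrin, best known from the neuromuscular junction, had 15148, 14855, 18257 and 16919 in the controls and 16865, 19596, 16823 and 16773 in the mutants. Apart from mutant replicate 2 the mutants were almost level, between 16773 and 16865, and the log2 difference was 0.11 (SE 0.0772, adjusted p = 0.818 in limma), and 0.051 without mutant replicate 2.

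Npnt had the largest difference toward lower counts. Nephronectin, Npnt (ENSMUSG00000040998, chromosome 3, 132881745 to 132950291), is a matrix ligand of the integrin formed by Itga8 and Itgb1. It had 8384, 7328, 10629 and 7911 normalised counts in the controls and 7834, 4303, 6615 and 7101 in the mutants. Only mutant replicate 1 reached into the range of the controls, and mutant replicate 2 was far below. The log2 difference was -0.43 (SE 0.165, unadjusted p = 0.0244, adjusted p = 0.754 in limma), and -0.24 without mutant replicate 2. Its receptor chain Itga8 had 1694 ± 250 normalised counts in the controls and 1468 ± 97.2 in the mutants, and was picked after its values were seen.

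The Fraser complex, a set of large proteins that bind each other under embryonic epithelium, had no separation. Frem1 (ENSMUSG00000059049, chromosome 4, 82897920 to 83052339) had 3508, 4314, 4423 and 3258 normalised counts in the controls and 4293, 3029, 3475 and 3825 in the mutants. Fras1 ranged from 2672 to 5278 in the controls and 2782 to 4116 in the mutants, and Frem2 from 2164 to 3006 and 1587 to 3153. The highest Fras1 value was in control replicate 3, at 1.72 times the mean of the other controls, and its log2 difference went from -0.085 to 0.11 without that library.

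Smoc2 (ENSMUSG00000023886, chromosome 17, 14279506 to 14404790), a calcium-binding matricellular protein, had 8416, 8514, 9598 and 8392 normalised counts in the controls and 9190, 9154, 8599 and 8579 in the mutants, a log2 difference of 0.026 (95% interval -0.10 to 0.15). Its relative Smoc1 had 520 to 672 in the controls and 593 to 768 in the mutants. Dystroglycan, Dag1 (ENSMUSG00000039952, chromosome 9, 108204634 to 108263958), the laminin receptor that links the sheet to the cytoskeleton, had 10227, 10585, 11290 and 10574 in the controls and 10605, 10015, 10671 and 10361 in the mutants. The groups overlapped, at a log2 difference of -0.034 (95% interval -0.14 to 0.076).

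**Figure D3:**
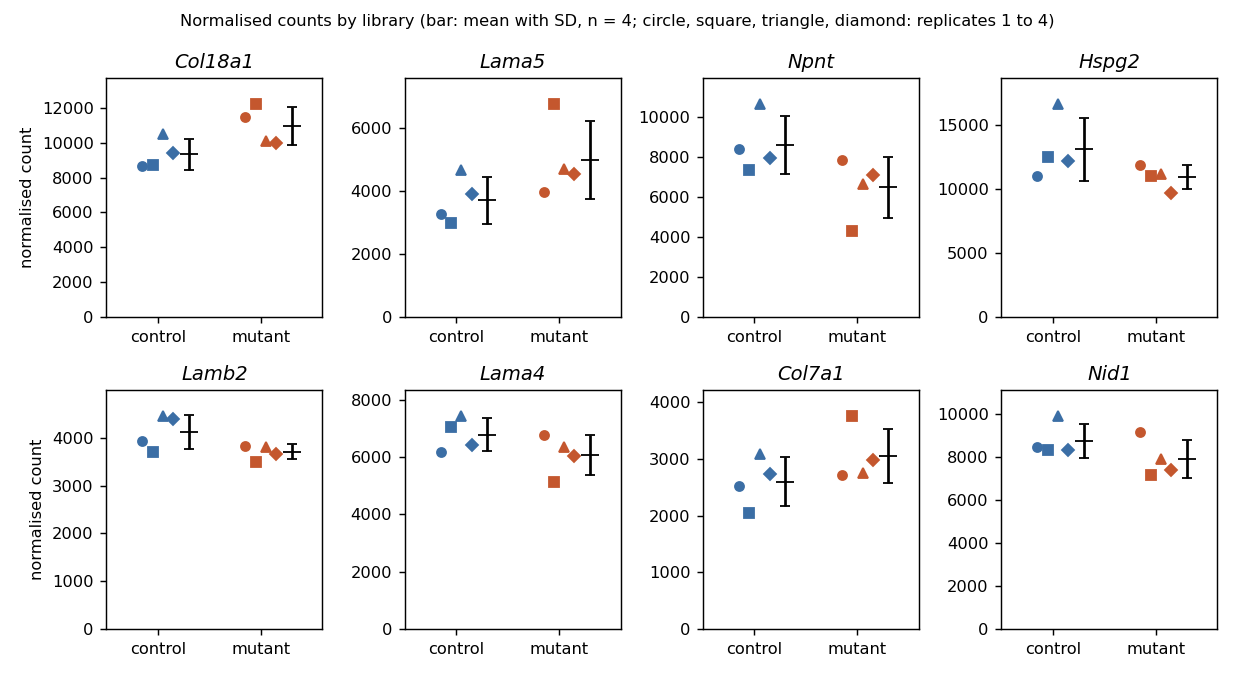
Normalised counts by library for the 8 members with the smallest unadjusted p, with the mean and SD (n = 4) beside each group and shapes for replicates 1 to 4. In every panel the groups overlap, and the triangle of control replicate 3 or the square of mutant replicate 2 is the highest or lowest point.

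The members were also read by library and not by genotype, for control replicate 3 and mutant replicate 2. Control replicate 3 was the highest of all 8 libraries for 16 of 29 members, against 14.4% of all genes, with folds over the mean of the other controls of 1.76 for Lama1, 1.72 for Fras1, 1.40 for Col4a2 and Hspg2 and 1.39 for Col4a1. Its median deviation over the members was 0.18 on the log2 scale, beside 0.013 over all genes. That library also had the lowest neuron marker level of the controls, -1.25, and the lowest chondrocyte level, -1.14. Its osteoblast, Schwann cell and glia, and palatal mesenchyme levels were the lowest of the controls as well, at -0.58, -0.28 and -0.051. Its skeletal muscle, endothelial and pericyte levels were the highest of the controls, at 0.20, 0.024 and 0.034, and its epithelial level was 0.064. Whether any of these bear on the members was not tested. Mutant replicate 2 was the highest of all 8 libraries for 9 of 29 members and the lowest for 9, against 16.9% and 17.3% of all genes. Of the mutants alone it was the highest for 10 and the lowest for 10, against 28.7% of all genes each way, so high and low values there are not particular to the members. At the upper end Lamb3, Lama3, Col17a1 and Lama5 were 1.73, 1.70, 1.57 and 1.54 times the mean of the other mutants. At the lower end Npnt, Lamc3, Nid2, Frem1 and Lama4 were 0.599, 0.601, 0.768, 0.784 and 0.802 times that mean.

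**Figure D4:**
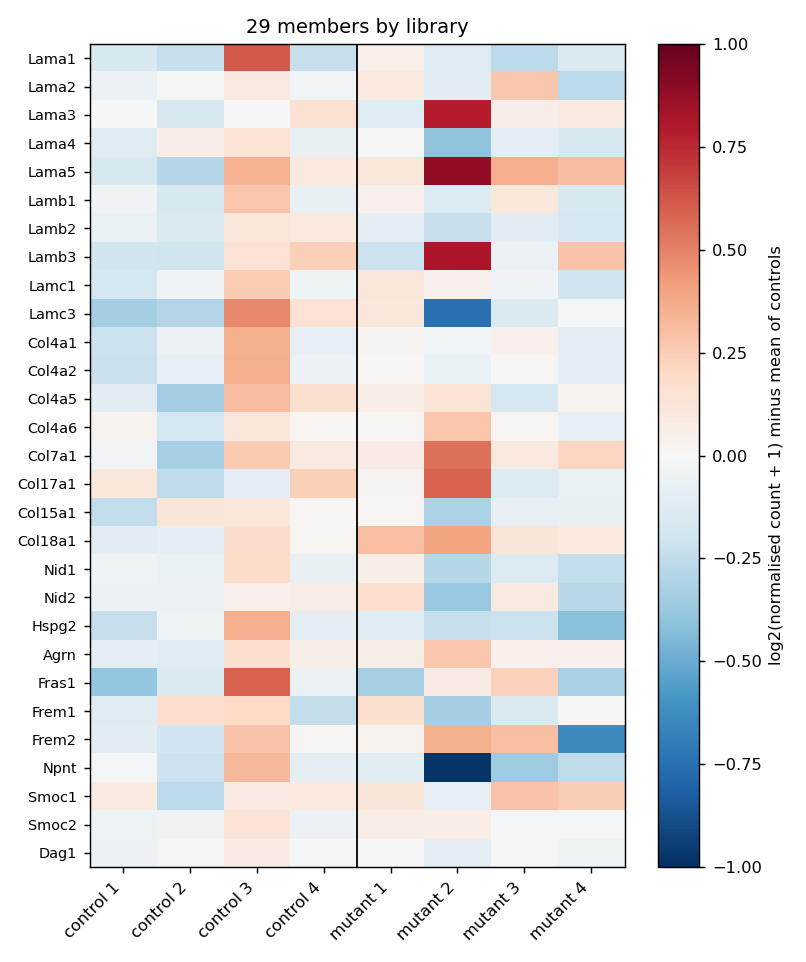
Log2(normalised count + 1) minus the mean of the controls for the 29 members with a mean of at least 50, with libraries as columns and the controls to the left of the line. The column of control replicate 3 is above 0 for most members, and that of mutant replicate 2 is split between high values such as Lama5 and low ones such as Npnt.

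Marker genes of epithelium, endothelium, bone, pericytes, muscle and glia were also read by library. In bulk tissue fewer cells of a type and less RNA per cell cannot be told apart. All 26 epithelial markers had higher means in the mutants, with 0 at 0 in every library. Their mean log2 level ran from -0.33 to 0.28 in the controls and from -0.056 to 0.74 in the mutants, the highest in mutant replicate 2, and their summed counts from 53566 to 75225 and from 58583 to 105262. Of 18 endothelial markers 14 had lower means, and their level ran from -0.057 to 0.024 in the controls and from -0.38 in mutant replicate 2 to -0.034. Summed endothelial counts were 27745 to 29641 in the controls and 21085 to 27600 in the mutants. All 12 tested osteoblast markers had lower means, with levels from -0.58 to 0.66 in the controls and -1.98 to -0.52 in the mutants, and Bglap at 0 throughout. Pericyte levels lay between -0.075 and 0.034 in the controls and -0.14 and 0.036 in the mutants, with Higd1b at 0. Skeletal muscle levels spread from -1.04 to 0.83 among the mutants and from -0.17 to 0.20 among the controls. Of 12 Schwann cell and glia markers 10 had higher means, with a median log2 difference of 0.44, and their level ran from -0.28 to 0.20 in the controls and from -0.053 to 1.40 in the mutants, the highest in mutant replicate 1. The part of these cell types in the differences of the members was not tested.

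One of 186 pairs of a member with a marker list was correlated across the 8 libraries after adjustment. Lama3 followed the epithelial level with Pearson's r = 0.95 and Spearman's rho = 1 (exact permutation p = 2.48e-05 and 4.96e-05, on both sides of 0, the smallest 8 libraries allow for each, adjusted p = 0.00461 and 0.00923 over 186 pairs). Without control replicate 2 and mutant replicate 2, the libraries farthest from the median epithelial level, r was 0.93, and for deviations from the group means it was 0.94. Its partner Lamb3 had r = 0.93 and rho = 0.93 with the same markers (exact permutation p = 0.000992 and 0.00223, adjusted p = 0.0923 and 0.208), and 0.88 without those libraries. Lama5, Col7a1 and Col17a1 had r of 0.88, 0.90 and 0.86 with the epithelial level, which dropped to 0.36, 0.34 and 0.20 without the same libraries and so rested on them (exact permutation p of 0.00717, 0.00962 and 0.00985, adjusted 0.174 to 0.183; rho 0.64, 0.76 and 0.62, adjusted p of 0.427 to 0.648).

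Lama4 and Col15a1 had r = 0.91 and 0.81 with the endothelial level, and rho of 0.86 and 0.81 (exact permutation p = 0.00335 and 0.00484 for r and 0.0107 and 0.0218 for rho, adjusted p = 0.174 for both r and 0.332 and 0.427 for rho). Without control replicate 3 and mutant replicate 2 these r were 0.70 and 0.64. Npnt had r = 0.90 and rho = 0.83 with the same list (exact permutation p = 0.00749 and 0.0154, adjusted p = 0.174 and 0.358), but 0.47 without those libraries. The pairs named without passing are a selection, and others were as strong. Frem2 with skeletal muscle had r = 0.87, and Col17a1 with pericytes -0.87 (exact permutation p = 0.00531 and 0.00712, adjusted p = 0.174 for both). Without the 2 libraries farthest from the median of each list these were 0.67 and -0.35. Lama3 with endothelium had r = -0.90, and Lama4 with epithelium -0.82 (exact permutation p = 0.0341 and 0.0229, adjusted p = 0.264 and 0.248). The first numbers of the library titles divide the samples into sets of at most 3, too few for a correlation within a set.

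**Figure D5:**
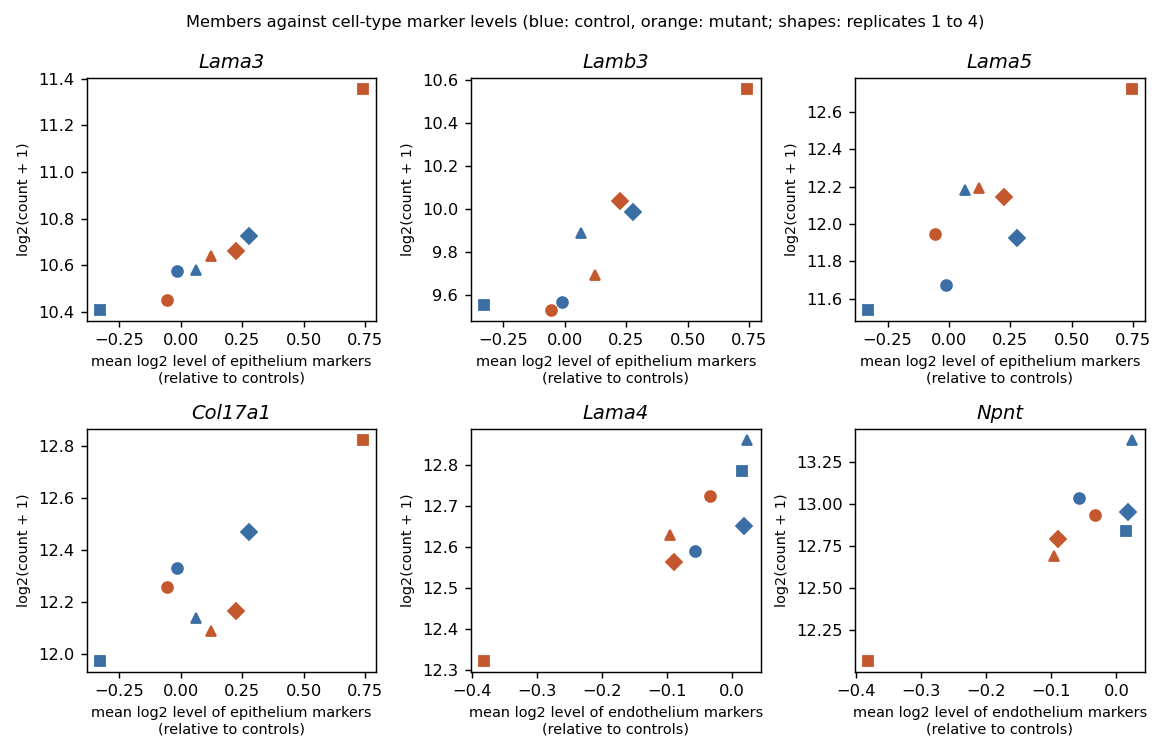
Log2(normalised count + 1) of 6 members against the mean log2 level of epithelial or endothelial markers relative to controls, 1 point per library (blue for controls, orange for mutants, shapes for replicates 1 to 4). Lama3 rises in step with the epithelial level in all 8 libraries, while for Lama5, Col17a1 and Npnt the square of mutant replicate 2 stands far from a looser group.

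Receptors and other genes around the basement membrane were taken from 6 lists of 96 names, of which 89 genes were tested. None passed in limma (0 called, smallest adjusted p = 0.751), 53 had lower and 36 higher means, and the median log2 difference was -0.064. At an unadjusted p under 0.05 there were 12 of these 89, against 6.57% of all genes. The groups did not overlap for 2 that were lower, Ddr2 and P4ha1, where 1.91% of all genes did not, and for 3 that were higher, among them Vwa2 and Pomgnt2, against 1.86%. Pomgnt2, an enzyme of dystroglycan glycosylation, was named after its values were seen.

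The 15 receptors of laminin, collagen or other matrix proteins had 5 lower and 10 higher means, with a median of 0.10. The collagen receptors Ddr2 and Ddr1 differed in opposite directions. Ddr2, typical of mesenchyme, had 9262 ± 528 normalised counts in the controls and 7891 ± 604 in the mutants (log2 difference -0.23, SE 0.0649, adjusted p = 0.751 in limma). Ddr1, typical of epithelium, had 4079 ± 385 and 5143 ± 933, and Itgb4, the laminin-binding integrin chain of hemidesmosomes, had 2305 ± 265 and 2925 ± 569. Without mutant replicate 2 the log2 difference of Ddr1 went from 0.32 to 0.21 and that of Itgb4 from 0.33 to 0.21.

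Among 18 tested genes of other basement membrane proteins 9 were lower and 9 higher. Vwa2, a partner of the Fraser complex, had 267 ± 34.4 normalised counts in the controls and 365 ± 65.4 in the mutants. The collagen-binding Sparc had 45234 ± 2216 and 37524 ± 4078 (log2 difference -0.27, SE 0.0777, adjusted p = 0.751 in limma). For folding and secretion of collagen 12 of 14 genes were lower, with a median of -0.14. P4ha1, a collagen prolyl hydroxylase, had 5110 ± 442 and 4208 ± 513, Mia3, which loads large cargo for export, 4029 ± 286 and 3646 ± 162, and P3h1 5271 ± 302 and 4648 ± 819. Mutant replicate 2 was the lowest of the 8 libraries for most of these 14 genes, P4ha1 and P3h1 among them but not Mia3. P3h1 was at -0.20 on the log2 scale and at -0.073 without mutant replicate 2, and P4ha1 at -0.28 and -0.20.

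Linkers of hemidesmosomes and dystroglycan had 12 of 15 lower means and a median of -0.095. Sgcd, a sarcoglycan, had 579 ± 31.8 normalised counts in the controls and 468 ± 70.7 in the mutants, the hemidesmosome linker Plec 11697 ± 1494 and 10393 ± 926, and Utrn, utrophin, 6897 ± 705 and 6326 ± 473. The 12 tested enzymes of dystroglycan glycosylation divided into 5 lower and 7 higher, with Tmem5 at -0.20 and Pomk at -0.13 on the log2 scale. Of 15 turnover genes 10 were lower. The heparan sulfate-trimming sulfatase genes Sulf2 and Sulf1 had 37595 ± 2817 and 31230 ± 5031, and 10311 ± 744 and 9359 ± 363, and the protease gene Mmp11 had 3714 ± 249 and 4142 ± 252. Sulf2 was at -0.28 on the log2 scale, and -0.16 without mutant replicate 2.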

How the data were processed

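RNA from 8 libraries of posterior palatal shelves was measured, 4 controls and 4 mutants, grouped by the genotype label. Replicate numbers follow sample order and pair nothing. The submitters' processing notes name STAR 2.7.2 and DESeq2. No source used here gives the counting tool, the strand setting or the build. The signal values were deposited as normalised counts, which the authors made by dividing read counts by 1 size factor per library and rounding to 1 decimal. All values from 50 to 5000 were whole reads within 0.06 once multiplied by the factor (100%, against 12.0% by rounding alone). The deposited log2 values are the authors' variance-stabilised values and served 1 alternative.

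For the comparison, log2(normalised count + 1) entered limma 3.58.1 (R 4.3.3), with variances trended on intensity, over 16647 genes with at least 10 in at least 4 libraries, two-sided, with Benjamini-Hochberg adjustment. Fold changes are on that scale, which understates those of low genes. Alternatives were pseudocounts of 0.5 and 8, other filters and scalings, library weights, robust variances, a block, each library left out, and edgeR 4.0.16 and DESeq2 1.42.0 on recovered reads. The stabilised values were added after seeing the data. Correlations used scipy 1.17.1. The limma fit was tested on simulated data.

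The members and lists were chosen with earlier results of these data known. Values in every library were given for the 8 members with the smallest p, the highest per kilobase in each role and the collagen IV pairs, and up to 3 genes of each other list were named by smallest p, except that some are not reported here. Exonic lengths are unions of exons in GENCODE M21, which placed 95.2% of 52403 shared gene IDs where the table does. Of 96 names on the other lists, 4 matched no row and 3 did not reach the filter.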

Additional observations from a re-analysis of the deposited data

Results flagged for a closer look

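In 5 of 62 groups of 4 libraries, 1 library lay far from the others on the log2 scale by Dixon's gap, where chance alone flags about 1 group in 20. Control replicate 3 was the high one for Lama1 (1426.1 normalised counts, others 796 to 842), Nid1 (9897.4, others 8296 to 8442) and Smoc2 (9597.8, others 8392 to 8514). Control replicate 2 was low for Smoc1 (520.3, others 666 to 672), and mutant replicate 2 was high for Agrn (19596.3, others 16773 to 16865).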

How the results depend on the processing

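No member was called under any of the 21 alternatives. Over the whole table the 4 calls became 0 with robust variances, 31 with DESeq2 and 0 to 11 with each library left out (11 without control replicate 3). The 0 members without overlap became 1 under quantile scaling, where 3.88% of all genes did not overlap, and 0 to 3 with a library left out. The 3 without control replicate 3 are 9.68% of the members, beside 8.55% of all genes, and over the libraries left out the share of all genes was 5.72% to 8.55%. Of the members 16 kept their direction in all alternatives and 15 did not, 44 of 645 values in all, and the causes were not tested.

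Signs turned under quantile scaling for Lamb1 (0.0003), Lamc1 (0.0232), Col4a1 (0.0443), Col4a2 (0.0199) and Dag1 (0.0070), and with library weights for Lama2 (0.0407), Lamb1 (0.0088), Col4a1 (0.0228) and Col4a3 (-0.1513). Lama2 turned to 0.0111 in edgeR and 0.0084 in DESeq2. Col4a3 turned to -0.1215 with a pseudocount of 8, -0.5150 in edgeR, -0.5225 in DESeq2 and -0.0120 on the stabilised values. With each library left out, log2 differences ran from -0.1650 to 0.0028 for Frem1, -0.1960 to 0.0844 for Lama1, -0.0583 to 0.1860 for Col17a1, -0.2149 to 0.1124 for Fras1, -0.0165 to 0.1026 for Col4a6, -0.1119 to 0.0851 for Col4a2, -0.0875 to 0.0590 for Lamb1, -0.0796 to 0.0650 for Lamc1, -0.0997 to 0.1190 for Col4a5, -0.0828 to 0.1072 for Col4a1, -0.6237 to 0.2750 for Col4a3, -0.0999 to 0.2300 for Frem2 and -0.0957 to 0.0831 for Lama2.

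With the first title number as a replicate block, the median of the members was -0.161, 20 were lower and 0 were called. Col4a5 (-0.0947), Frem2 (-0.2521) and Smoc2 (-0.0460) changed sign. Control replicate 1 and mutant replicate 1 each have a number that no other library has, so they add nothing to the group difference in this fit. Within number 3602 the only control is control replicate 3, which was high for many members, so the block values lean on that library. Under that block Hspg2 was at -0.47 (adjusted p = 0.115 in limma, the smallest of any member in any alternative), Nid1 at -0.285, Lama4 at -0.27, Col15a1 at -0.23, Col18a1 at 0.11 and Agrn at 0.037. Fras1 was at -0.33, Lamc1 at -0.21, Col4a1 at -0.19 and Lama5 at 0.34 (adjusted p = 0.560, 0.664, 0.725 and 0.725 in limma). The members named here are a selection. The labels do not say what that number marks, so it was not taken as pairing. The 4 pairs sharing it had r of -0.0077 to 0.10, against -0.085 to 0.076 for the 12 others. These r compare control with mutant libraries only and do not decide what the number marks. Depth limits Col4a3 and Col4a4, at 46 reads or fewer.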
